A study of Homo sapiens with 4 samples.

Results

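The genes described here were 7 members of the BCL2 family, 7 of the 20163 protein-coding genes in the GENCODE annotation on GRCh37 (hg19). They were BAX, BAK1, BBC3 (PUMA), PMAIP1 (NOXA), BID and BCL2L14, here grouped as pro-apoptotic, and BCL2L1 (BCL-xL), which is anti-apoptotic. They were chosen by name. A p53 ChIP-seq peak was assigned to a member when its summit, the base with the highest coverage, lay in the gene or within 25 kb of it, and p53 response elements (REs) that the study had listed at these genes were added. That gave 9 sites at 6 of the members, and 6 REs listed under the names of 4 of them out of 1356 listed in all.

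The data came from 4 ChIP-seq libraries of H1299, a human lung cancer cell line that lacks p53. All 4 carried a lentiviral p53 gene under a tetracycline (Tet) inducible promoter in cells that express the Tet repressor, and all were cross-linked with formaldehyde and precipitated with an anti-p53 antibody. WT p53 cells were untreated or given Tet for 24 h, and K120R-p53 cells, in which lysine 120 of the DNA-binding domain is replaced by arginine, were untreated or given Tet for 24 h. The labels give the Tet dose as 1 µg/µl. The p53 in these cells was expressed from a transgene in a tumour line and not from its own locus.

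Each condition was 1 library, so no difference between conditions was tested, and the intervals given are exact 95% intervals that cover counting error only. The lists held 488 peaks for untreated WT p53, 4326 for WT p53 after Tet, 12 for untreated K120R and 2023 for K120R after Tet, from 33059650 to 34857204 ChIP tags per library. The fragment length that the peak caller used was 170 bp in the WT Tet library and 64 to 68 bp in the others, so fold enrichments of different lists were not on 1 scale. Sites were therefore compared by whether a peak was listed and by rank within a list. Fragments over a summit and the limit for calling a peak depend on this length too, so they also differ in scale between lists. The smallest WT Tet peak held 12 fragments over its summit. Fold enrichment is the coverage at the summit over the local background of the input DNA. A missing peak is not a reading of 0, since the smallest K120R peak after Tet still held 8 fragments over its summit and coverage outside the lists was not analysed here.

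BCL2 family proteins decide whether the outer membrane of mitochondria is opened during apoptosis. BAX and BAK1 form the pores, the BH3-only proteins PUMA, NOXA and BID activate them or free them from their inhibitors, and BCL-xL, like BCL2 itself, holds them in check. BAX, BBC3 and PMAIP1 are textbook target genes of p53, which binds an RE made of a pair of decamers, each with a conserved 4-bp core.

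REs at 5 of the members are shown because they lay inside a peak and because they differ at the bases next to the cores. Not all lay at the summit. The BAK1 match was 45.5 bp from its K120R Tet summit and RE B of BCL2L1 222.5 bp from its WT Tet summit. All are from GRCh37 and are written 5′ to 3′ on the strand that the study lists or, for REs outside that list of 1356, taken as the best match in the peak, the strand of that match. The RE at +45.2 kb of BCL2L1 is in that list under COX4I2. Capitals mark positions 3, 8, 13 and 18 of the 20 bps, the bases directly before and after each core.

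BAX, chr19:49458470-49458489: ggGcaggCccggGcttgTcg
BBC3 at +1.4 kb, chr19:47734577-47734596: ggAcaagTcaggActtgCag
BBC3 at +0.2 kb, chr19:47735825-47735844: ggAcatgCctggGcagaCcc
BBC3 at +14.6 kb (best match in the peak), chr19:47721428-47721447: aaGcatgCcccaAcatgCcg
PMAIP1 (best match in the peak), chr18:57567043-57567062: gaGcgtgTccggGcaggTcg
BAK1 (best match in the peak), chr6:33524767-33524786: gaGgaagTgcaaAcaagTgc
BCL2L1 at +24.5 kb, RE A, chr20:30287235-30287254: agGcatgTtcggActtaGcc
BCL2L1 at +24.5 kb, RE B, chr20:30287472-30287491: gaGccagCccaaTctagGtc
BCL2L1 at +45.2 kb (best match in the peak, listed under COX4I2), chr20:30266574-30266593: ggActtgTctggActagTtg

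Sites are named by the distance from the gene's most upstream start site to the summit, in the direction of transcription. Each of these 20-mers occurred once in GRCh37, on either strand. The BAX RE, the BBC3 REs at +0.2 kb and +14.6 kb and RE B of BCL2L1 had G or C at 3 of the 4 marked positions, the PMAIP1 RE and RE A of BCL2L1 at 2, the BBC3 RE at +1.4 kb and the BAK1 RE at 1, and the RE at +45.2 kb of BCL2L1 at 0.

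**Figure D1:**
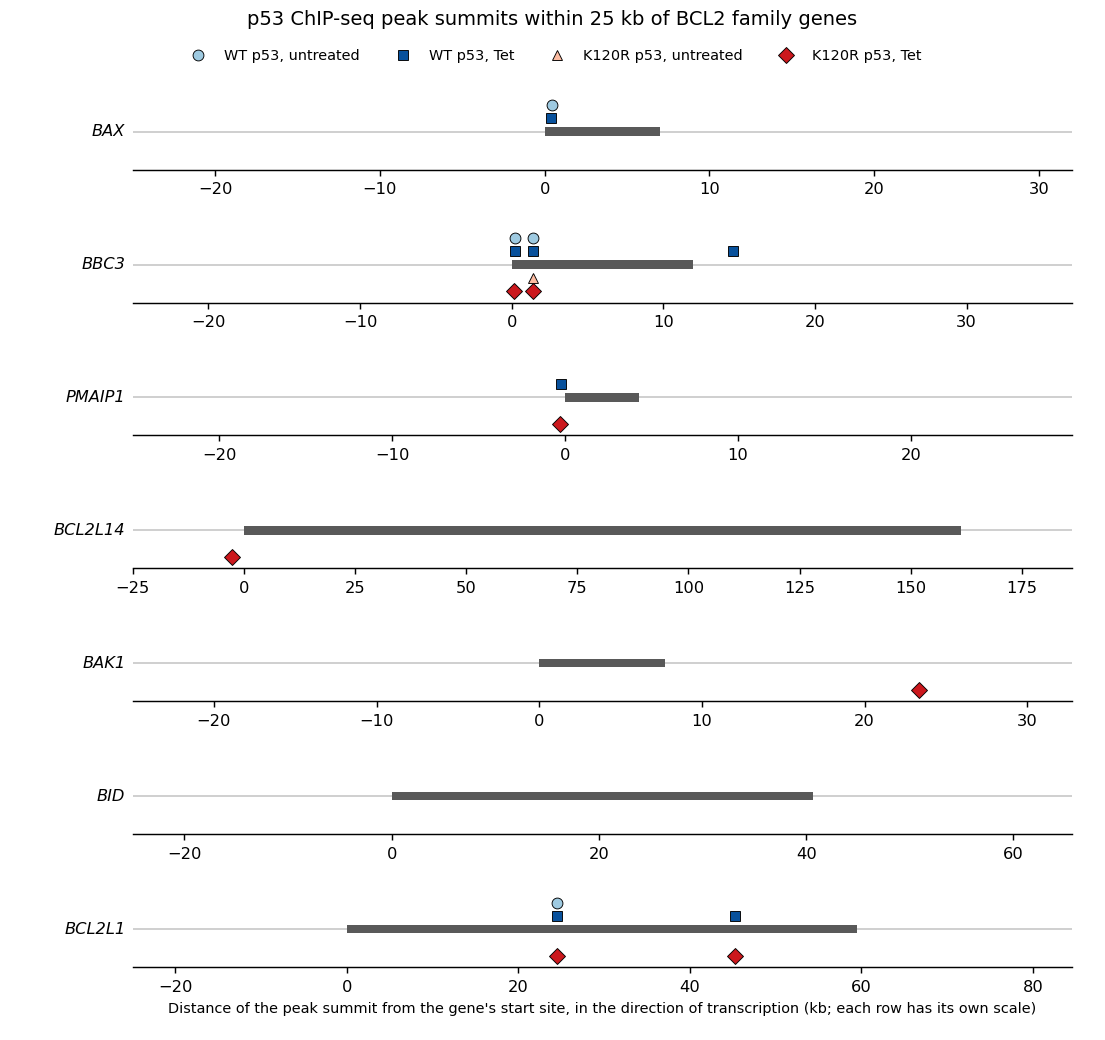
Peak summits in the 4 libraries at the 7 members. The x axis of each row is the distance from the gene's start site in kb in the direction of transcription, each row on its own scale, the grey bar is the gene, and the symbols are the libraries (blue WT p53, red K120R, pale untreated, dark after Tet). BAX has WT peaks only, BCL2L14 and BAK1 have a K120R peak only, BID has none, and BBC3 and BCL2L1 have peaks of both proteins.

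Of the 7 members, 4 had a WT p53 peak after Tet (BAX, BBC3, PMAIP1 and BCL2L1) and 5 had a K120R peak after Tet (BBC3, PMAIP1, BCL2L14, BAK1 and BCL2L1). By the same rule 19.1% of all protein-coding genes had a WT Tet peak and 9.46% had a K120R Tet peak. Without Tet, 3 members had a WT peak (BAX, BBC3 and BCL2L1), against 2.59% of all protein-coding genes, and BBC3 alone had a K120R peak, against 0.0347%. With −log10 q held to 10 or more, 3 members had a K120R peak after Tet and 0 without Tet, where 3.52% and 0.0198% of all protein-coding genes did. In the gene body itself 2 members had a K120R Tet summit, against 4.85%. With −log10 q held to 5 or more, 2 members had an untreated WT peak, without BCL2L1, against 1.99%. The 7 windows together spanned 0.642 Mb, with 10.9 peaks per Mb in each of the Tet lists, whereas the genome as a whole had 1.40 WT Tet peaks and 0.653 K120R Tet peaks per Mb. The median window was 61.9 kb for the members and 77.2 kb for protein-coding genes. These members are known p53 targets and were picked by name, so the counts describe them and were not tested.

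Of the 7 WT Tet peaks at members, 5 overlapped a K120R Tet peak, where 25.2% of all WT Tet peaks did. At a −log10 q of at least 5 in both lists it was 3 of them, without PMAIP1 and BCL2L1 at +45.2 kb. The 25.2% is for all listed peaks, without that limit. An untreated WT peak was present at 4 of the 7, where 9.27% of all WT Tet peaks had one. In the other direction, 5 of the 7 K120R Tet peaks at members overlapped a WT Tet peak, where 56.8% of the whole K120R list did. The exceptions were BAX and BBC3 at +14.6 kb, which had no K120R peak, and BCL2L14 and BAK1, which had no WT peak.

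**Figure D2:**
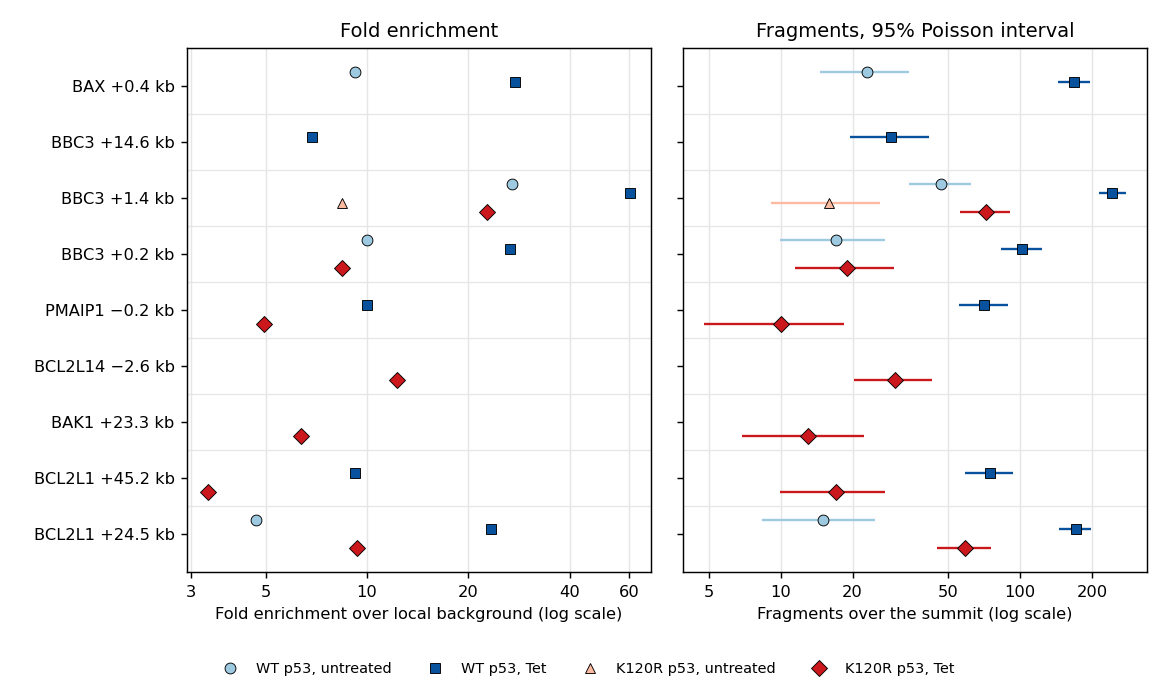
Fold enrichment (left) and fragments over the summit (right) of each peak at the 9 sites, both on log axes, with exact 95% Poisson intervals on the fragments. Symbols are the libraries, and a missing symbol means no peak in that list. BBC3 at +1.4 kb had a peak in all 4 libraries and the highest value in each, from 244 fragments in WT Tet to 16 in untreated K120R. Sizes cannot be compared across libraries on either axis, since the fragment length that the peak caller used differed.

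BAX, a pore-forming effector, had WT p53 peaks only. The summit lay 412 bp after the gene's start site, in intron 1 of the canonical transcript, and 4.5 bp from the centre of the listed RE. After Tet the WT peak had a fold enrichment of 27.5 and 169 fragments (144 to 196), more than 94.4% of the WT Tet list by fold enrichment. The untreated WT library also had a peak here, at a fold enrichment of 9.20 and 23 fragments (14.6 to 34.5). Neither K120R library had a peak in the window, and the nearest K120R Tet summit was 1722.2 kb away.

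BAX was among the stronger WT Tet peaks without a K120R peak. Of the 243 WT Tet peaks with a higher fold enrichment, 195 (80.2%) had a K120R Tet peak and 48 did not. Of the 100 WT Tet peaks nearest to it in rank, 66% had one (55.8% to 75.2%). The BAX RE, which has 2 mismatches to the consensus p53 RE, was embedded in GC-rich DNA. The 100 bps around it, with the RE in capitals, were 72% G or C.

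BAX intron 1, chr19:49458430-49458529, plus strand: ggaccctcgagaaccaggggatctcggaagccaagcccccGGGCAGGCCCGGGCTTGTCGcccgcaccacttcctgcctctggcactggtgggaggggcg

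BAK1, the other effector, had a single K120R Tet peak and no WT peak. It lay 15593 bp beyond the 3′ end of the gene, 23.3 kb after the start site. Its fold enrichment was 6.38 with 13 fragments (6.92 to 22.2), above 42.2% of the K120R Tet list by fold enrichment and above 21.8% by pileup. The nearest WT Tet summit was 317.7 kb away. The best match to the consensus RE in the peak had 3 mismatches and lay 45.5 bp from the summit. Of the 100 K120R peaks nearest to it in rank, 52% overlapped a WT Tet peak (41.8% to 62.1%).

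BBC3 encodes PUMA, a BH3-only protein that binds all the anti-apoptotic members, and had the most sites of any member, with 3. The strongest was at +1.4 kb, and its RE lay 121 bp upstream of the start of the canonical transcript, in an intron of 3 longer transcripts. WT p53 after Tet had a fold enrichment of 60.2 with 244 fragments (214 to 277), which ranked 24 of 4326. K120R after Tet had 22.8 with 72 fragments (56.3 to 90.7), which ranked 22 of 2023. The site thus stood near the top of both lists.

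This was also the only site at any of the members with a peak in the untreated K120R library, at 16 fragments (9.15 to 26.0) and a fold enrichment of 8.41, which ranked 2 of the 12 peaks there by fold enrichment. By pileup none of the 12 was lower, and by −log10 q it stood above 8.33% of them. Untreated WT p53 had 47 fragments (34.5 to 62.5) and a fold enrichment of 26.9, which ranked 20 of 488. All 23 WT Tet peaks stronger than this one had a K120R peak, as did 66 of the 73 peaks nearest in rank (90.4%). The RE has 3 mismatches, with both cores intact, and lay in DNA that was 81% G or C.

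BBC3 at +1.4 kb, chr19:47734537-47734636, plus strand: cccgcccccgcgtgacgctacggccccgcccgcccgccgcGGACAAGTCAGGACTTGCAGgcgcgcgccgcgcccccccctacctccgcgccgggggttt

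The BBC3 site at +0.2 kb lay over the first exon of the longer transcripts, and its RE is coding sequence in 3 of the 6 transcripts. WT p53 after Tet had a fold enrichment of 26.6 with 102 fragments (83.2 to 124), close in rank to BAX at 257 against 244. Unlike BAX it had a K120R Tet peak, with a fold enrichment of 8.43 and 19 fragments (11.4 to 29.7), above 71.1% of that list. Untreated WT p53 had 17 fragments (9.90 to 27.2) and a fold enrichment of 9.98. The K120R summit was 51 bp from the WT summit and 38.5 bp from the centre of the RE, against 12.5 bp for WT. The stretch with the RE in capitals is shown with 5 bps on each side.

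BBC3 at +0.2 kb, chr19:47735820-47735849, plus strand: ggcatGGACATGCCTGGGCAGACCCcatgc

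The BBC3 site at +14.6 kb, 2666 bp beyond the 3′ end of the gene, had a WT Tet peak alone, at a fold enrichment of 6.88 and 29 fragments (19.4 to 41.6). It stood above 42.9% of the WT Tet list. Of the 100 peaks nearest in rank, 20% had a K120R peak, so most peaks of that strength lacked one. The best RE in the peak had 2 mismatches.

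PMAIP1 encodes NOXA, a BH3-only protein that binds MCL1. Its peaks lay just upstream of the gene, over the promoter. WT p53 after Tet had a summit 208 bp before the start site with a fold enrichment of 9.97 and 71 fragments (55.5 to 89.6), above 65.1% of the list. K120R after Tet had 10 fragments (4.80 to 18.4) and a fold enrichment of 4.95, above 14.3% of its list by fold enrichment and above 2.62% by pileup. Neither untreated library had a peak.

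The PMAIP1 peaks of the 2 proteins did not share a summit. The K120R summit was 73 bp upstream of the WT summit and 105.5 bp from the centre of the RE, which was 32.5 bp from the WT summit and only partly inside the K120R peak. With 10 fragments the position of the K120R summit is coarse. Of the 100 WT Tet peaks nearest in rank, 24% had a K120R peak (16.0% to 33.6%). The promoter was the only one of the members' RefSeq promoters (GRCh38.p14, from 250 bps before to 50 after the start; 7 of 7 members matched) that held an RE with at most 3 mismatches on either strand, at -185 to -166, as did 5.20% of all 35116 promoters.

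PMAIP1 promoter, chr18:57567003-57567102, plus strand (GRCh37): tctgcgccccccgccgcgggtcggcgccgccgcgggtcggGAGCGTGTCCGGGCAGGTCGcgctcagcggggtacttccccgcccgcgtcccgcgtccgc

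BID, a BH3-only protein that caspase-8 cleaves, had no peak in any of the 4 lists. The nearest summit was 210.9 kb away for K120R Tet and 387.9 kb away for WT Tet. Its window of 90.6 kb was longer than those of BAX, BBC3, PMAIP1 and BAK1.

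BCL2L14 (BCL-G) had a K120R peak and no WT peak. The summit lay 2627 bp before the gene's most upstream start site. Its fold enrichment was 12.3 with 30 fragments (20.2 to 42.8), above 89.7% of the K120R Tet list. The nearest WT Tet summit was 56.0 kb away. Of the 100 K120R peaks nearest in rank, 68% overlapped a WT Tet peak (57.9% to 77.0%), so a K120R peak of this strength without a WT peak was in the minority.

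Of the 1356 listed REs, 22 had no WT peak, and 2 of these, with the one listed at BCL2L14 among them, had a K120R peak. The study describes its listed REs as binding sites of WT p53. For the RE at BCL2L14 the missing WT peak thus differs from the study's own call, and it is not a sign that WT p53 was absent.

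BCL2L1 encodes BCL-xL, the only anti-apoptotic protein in the set, and had 2 sites, both in intron 2. The stronger was at +24.5 kb. WT p53 after Tet had a fold enrichment of 23.4 there, with 171 fragments (146 to 199), about as many as at BAX. K120R after Tet had 59 fragments (44.9 to 76.1) and a fold enrichment of 9.36. Untreated WT p53 had 15 fragments (8.40 to 24.7) and a fold enrichment of 4.69, a low place in its list, above 13.7%.

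RE A of BCL2L1 was 14.5 bp from the WT Tet summit and RE B 222.5 bp, so the summit lay at RE A. Of the 100 WT Tet peaks nearest in rank, 62% had a K120R peak (51.7% to 71.5%), and 41 had an untreated WT peak. By coverage alone the K120R peak stood above 98.4% of its list, against 78.3% by fold enrichment. The local background under it was 5.00 fragments, and the median over the K120R Tet list was 1.16.

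The BCL2L1 site at +45.2 kb was weaker. WT p53 after Tet had a fold enrichment of 9.21 and 75 fragments (59.0 to 94.0). K120R after Tet had 17 fragments (9.90 to 27.2) and a fold enrichment of 3.38, which ranked 2012 of 2023 by fold enrichment and stood above 50.6% of the list by pileup, with a −log10 q of 1.50, close to the limit of the list. This summit was nearer to the start site of COX4I2, a cytochrome c oxidase subunit gene, at 40849 bp, than to that of BCL2L1. Its RE had 1 mismatch to the consensus and both cores intact, the fewest mismatches among the members where no spacer was allowed.

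When the pro-apoptotic members were set beside BCL2L1, each group had WT Tet sites with and without an untreated WT peak (3 of 5 and 1 of 2 with one). The untreated WT peak at BCL2L1 had a −log10 q of 3.63 and a fold enrichment of 4.69. It dropped out with either held to 5 or more. The pro-apoptotic members had 5 WT Tet peaks, of which 3 had a K120R peak (60%, 14.7% to 94.7%). BCL2L1 had 2, both with a K120R peak (15.8% to 100% at this number). With so few peaks, 3 of the 5 at BBC3 alone, these counts are a description, and no difference between the groups could be read from them. Under either stricter limit on −log10 q (5 or 10, applied to both lists), 2 pro-apoptotic peaks, both at BBC3, and 1 peak at BCL2L1 were shared.

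**Figure D3:**
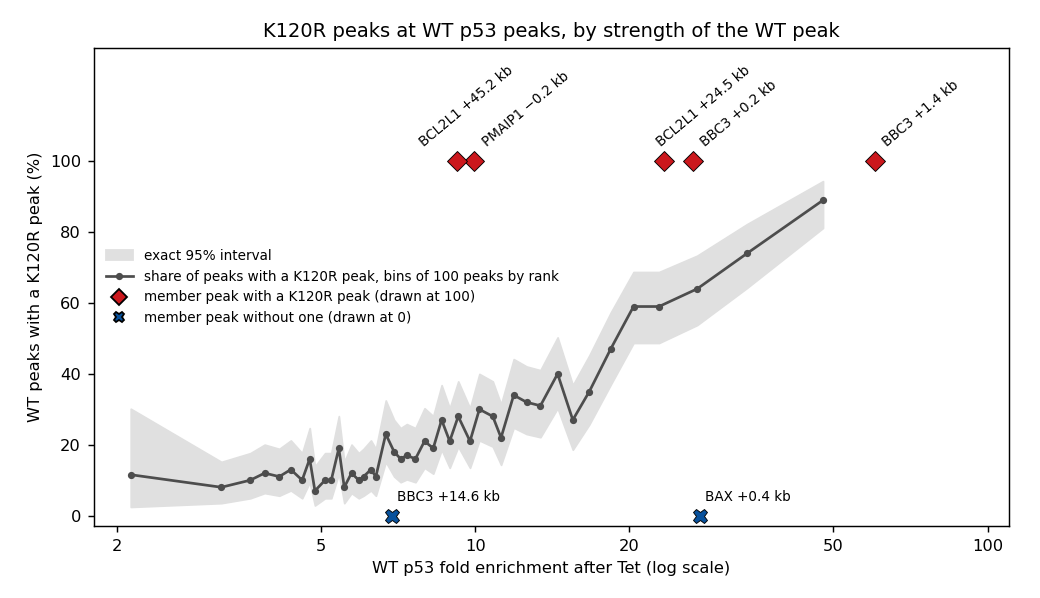
Share of WT Tet peaks with a K120R Tet peak in bins of 100 peaks by rank (line, with exact 95% intervals in grey) against the WT fold enrichment on a log axis, with the members' WT Tet peaks drawn at 100 where a K120R peak was listed and at 0 where not. The share climbs to 89% in the strongest bin, and BAX, at a fold enrichment of 27.5, sits at 0 where the share around it is 64% to 66%.

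Over the listed REs, the number of G or C bases at the marked positions moved with the presence of a K120R peak. The study chose these REs with the same libraries in hand, so the shares are no independent evidence. Of the 1334 listed REs with a WT Tet peak, 40.6% had a K120R peak. The share fell from 77.6% of the 156 REs with no G or C at the 4 marked positions to 55.7% with 1, 34.3% with 2, 18.3% with 3 and 14.3% with 4. BAX and BBC3 at +0.2 kb both had 3, and of this pair only BBC3 at +0.2 kb had a K120R peak, so REs of the same class differed. Their WT Tet peaks were close in fold enrichment (27.5 and 26.6) but not in fragments (169 and 102). Among listed REs with a WT fold enrichment of at least 20, the share was 45.2% with 3 (33.5% to 57.3%, 73 REs), 64.6% with 2 (56.3% to 72.3%, 147 REs) and 81.0% with 1 (73.0% to 87.4%, 126 REs). BCL2L1 RE A, with 2, and BBC3 at +1.4 kb, with 1, had K120R peaks.

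**Figure D4:**
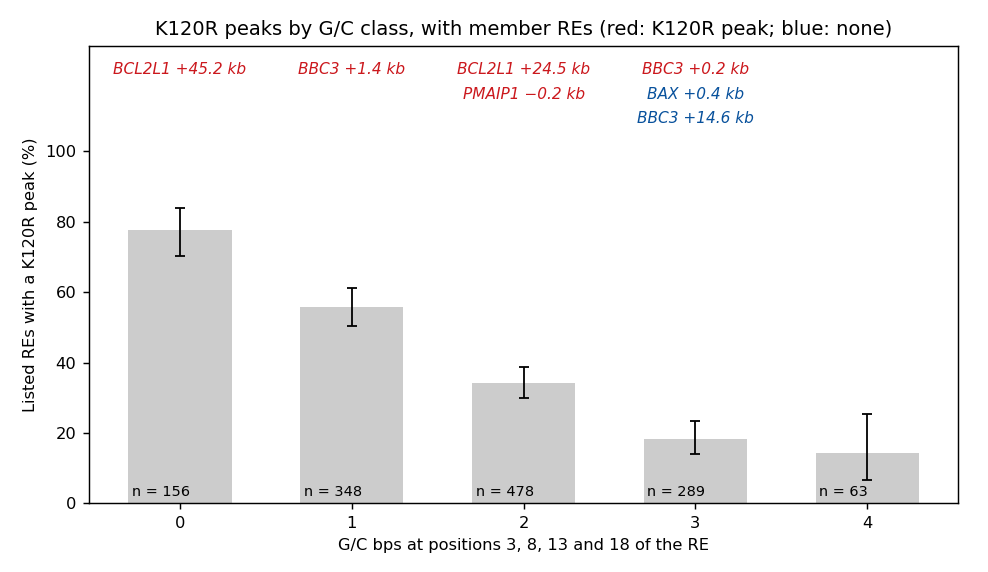
Share of listed REs with a WT Tet peak that also had a K120R Tet peak (bars, %, with exact 95% intervals), by how many of the 4 bases flanking the cores were G or C, with the members' REs named above their class in red where a K120R peak was listed and in blue where not. The share falls from 77.6% with 0 to 14.3% with 4. BCL2L14 and BAK1, which had no WT peak, and RE B of BCL2L1, which shares a peak with RE A, are not drawn, and the REs of PMAIP1 and BBC3 at +14.6 kb are not in the list of REs and are not counted in the bars.

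An RE with at most 3 mismatches and no spacer between the decamers lay in all 7 WT Tet peaks at members and in 5 of the 7 K120R Tet peaks. Over the whole lists this held for 81.9% of WT Tet peaks and 56.4% of K120R Tet peaks, and for 7.98% and 5.49% of windows of the same length 3000 bps away. The K120R peaks without one were those at PMAIP1 and BCL2L14, and with a spacer of up to 13 bps allowed the BCL2L14 peak held one as well, which made 6 of 7. The base composition of the peaks varied widely. The WT Tet peaks at BAX, BBC3 +1.4 kb and PMAIP1 were 68.2%, 70.1% and 72.3% G or C, above at least 98.2% of the list, whose median was 45.4%. Those at BBC3 +0.2 kb and +14.6 kb were 49.6% and 52.3%, and those at BCL2L1 were 48.0% and 53.2%.

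Of the 14 other family genes that were looked up (BCL2, MCL1, BCL2L2, BCL2A1, BCL2L10, BOK, BIK, BMF, BAD, BCL2L11, HRK, BCL2L12, BCL2L13 and BCL2L15), 3 had a peak in any list, each in 1 library only. BIK had a WT Tet peak with a fold enrichment of 6.40 and 32 fragments, 14711 bp from the gene and nearer to the start of TTLL1. BCL2L2, which encodes the anti-apoptotic BCL-w, had a K120R Tet peak with a fold enrichment of 5.17 and 9 fragments. BAD, a BH3-only gene, had a peak in the untreated WT library alone, with a fold enrichment of 27.2 and 48 fragments (35.4 to 63.6), 1008 bp from the gene and inside GPR137. The counts per list were 1 of 14 for untreated WT, 1 for WT Tet, 0 for untreated K120R and 1 for K120R Tet, where the shares of all protein-coding genes were 2.59%, 19.1%, 0.0347% and 9.46%.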

How the data were processed

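Per the labels and the files' headers, the authors aligned reads to hg19 with BWA and called peaks with MACS2 (2.1.1.20160309) on each ChIP library against its own input at a q-value cutoff of 0.05. The deposited peak tables give the pileup at the summit (a coverage signal), −log10 p and −log10 q, and the fold enrichment, a ratio of pileup plus 1 to local background plus 1. The narrowPeak and summit files hold the same peaks and were not used. Fragments were recovered as the pileup divided by the scale of the ChIP library, and all came out whole within 0.02.

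Peaks were assigned to genes of GENCODE 44 on GRCh37 by summit, within 25 kb. Peaks counted as shared with an overlap of 1 bp. The consensus p53 RE was matched on both strands, without a spacer, with at most 3 mismatches. Neighbours in rank were the 100 WT Tet (or K120R Tet) peaks nearest in the same list, fewer near its ends. Intervals were Clopper-Pearson for shares and Poisson for fragments (scipy 1.17.1, numpy 2.4.6, pandas 2.3.3, matplotlib 3.10.9, Python 3.11.15). The scripts were tested on simulated data. Named are all members with every peak in their windows, each listed other family gene with a peak, and any gene whose start site is nearer to a member peak. The members and lists were chosen with earlier results of these data known. From the study's RE list only sequences, positions and gene names were taken. The unit of the Tet dose differs between the labels and the written methods (per µl or per ml). Thresholds, distances, overlaps, ranking measures and RE settings were varied. The sequence under the BCL2L14 peak is not reported here.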

Additional observations from a re-analysis of the deposited data

How the results depend on the processing

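No paired analysis was possible because each condition was 1 library, so leaving out a replicate could not be done. The K120R Tet peaks at PMAIP1, BAK1 and BCL2L1 +45.2 kb rested on 10, 13 and 17 fragments, the last over a local background of 4.00. With a −log10 q of at least 5, at least 10 or a fold enrichment of at least 5, the share of all protein-coding genes with a peak was 1.99%, 1.20% and 2.27% for untreated WT (reported 2.59%), 17.9%, 13.8% and 16% for WT Tet (19.1%) and 6.65%, 3.52% and 8.10% for K120R Tet (9.46%). Within 10 kb, 50 kb or the gene body alone it was 1.81%, 3.84% and 1.13% for untreated WT, 13.9%, 26.9% and 9.84% for WT Tet and 6.97%, 13.5% and 4.85% for K120R Tet. With a −log10 q of at least 10, members with a peak were 0 rather than 1 for untreated K120R and 3 rather than 5 for K120R Tet, and 2 for K120R Tet in the gene body alone. For untreated K120R the share of all protein-coding genes at that limit was 0.0198% (reported 0.0347%). Members with a WT Tet peak stayed at 4, and at 3 in the gene body alone. The WT Tet member peaks with a K120R peak were 3 rather than 5 at a −log10 q of at least 5 and of at least 10, as PMAIP1 and BCL2L1 at +45.2 kb dropped out, and those of BCL2L1 were 1 rather than 2 under both. K120R member peaks with an RE were 3 rather than 5 within 50 bp of the summit, and 3 with at most 2 mismatches. In all, 43 such values, some of them given above, stayed within their 95% interval (shares) or within 1.5 times (counts). Of 28 re-rankings of single peaks, 23 moved, most at BCL2L1 +45.2 kb in K120R Tet, from above 0.445% of the list by fold enrichment to above 50.6% by pileup. The causes were not tested.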

Other observations

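Outside the 25 kb windows, the nearest family gene to a strong site was BCL2A1, an anti-apoptotic member that restrains BAX and BAK1. A site 32148 bp from it, with a listed RE of 0 mismatches, had a fold enrichment of 17.7 in untreated WT, 47.4 with 206 fragments (179 to 236) in WT Tet, which ranked 53 of 4326, and 15.0 with 31 fragments in K120R Tet. The pattern over the libraries was that of BBC3 at +0.2 kb and BCL2L1 at +24.5 kb, with a peak in every library but untreated K120R. A WT Tet peak lay in KDSR, 42007 bp from BCL2, with a fold enrichment of 7.76, and a pair of WT Tet peaks lay 32061 bp and 41433 bp from BCL2L10 with 5.33 and 8.14. A K120R Tet peak lay in ENSA, 44570 bp from MCL1, with a fold enrichment of 4.80.

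The BAD peak was the strongest of the 74 untreated WT peaks (15.2% of that list) that had no WT Tet peak. The next of these had a fold enrichment of 20.7 and their median was 4.64. The best match to the consensus RE in the BAD peak had 6 mismatches. An RE with at most 3 mismatches lay in 2 of the 74 (2.70%), against 81.2% of the untreated WT peaks that had a WT Tet peak. What these peaks stand on was not tested.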
